A study of Rattus norvegicus with 6 samples.

Results

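The adhesion molecules by which leukocytes attach to vessel walls and enter tissue were represented by 9 genes, taken by symbol from the array annotation, of which 7 carried at least 1 probe set, among 14224 genes with a probe set of their own. Integrin alpha L (Itgal), alpha M (Itgam), beta 2 (Itgb2), beta 7 (Itgb7), Icam1 and Pecam1 had 1 probe set each, and integrin beta 1 (Itgb1) had 2, which made 8 probe sets of 31042 tested. Their identifiers are 1393347_at (Itgal), 1388046_at (Itgam), 1383131_at (Itgb2), 1368819_at and 1387346_at (Itgb1, first and second), 1371106_at (Itgb7), 1387202_at (Icam1) and 1371545_at (Pecam1). Integrin alpha 4 (Itga4) and the P-selectin ligand Selplg were not analysed here, because no probe set carried their symbols, and no selectin is among the 9. Blood was drawn from the hearts of male Sprague-Dawley rats, 8 weeks old, at 24 h after reperfusion. In the 3 rats of the middle cerebral artery occlusion (MCAO) group a silicone-coated thread had closed the origin of the left artery for a period before it was withdrawn, and in the 3 sham rats an uncoated thread had been inserted in the same way. Both groups had the common and external carotid arteries ligated under isoflurane. The MCAO rats were chosen from a larger operated set by infarct size, the sham rats were not, and each array held the whole-blood RNA of 1 rat. The comparison asks how the levels of these adhesion molecules in blood differ between rats with and without an infarct.

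Integrins are pairs of an alpha and a beta chain that bind ligands more strongly after a signal from inside the cell has straightened them. The beta 2 chain pairs with alpha L to form LFA-1, the main integrin of lymphocytes, and with alpha M to form Mac-1, that of neutrophils and monocytes, and both bind Icam1 on activated endothelium. Alpha 4 pairs with beta 1 to bind Vcam1 or with beta 7 to bind Madcam1 in the gut. Selectins and their ligands slow rolling leukocytes before integrins arrest them, and Pecam1 at endothelial junctions serves the passage through the vessel wall.

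The deposited values were taken as log2 signals, since no log base is stated. The authors had normalized them over the 6 arrays with the Distribution Free Weighted (DFW) method. Over the 6 arrays, probe sets had a median range of 6.55e-06 log2 units, the array medians lay between 5.56433 and 5.5644, and differences are therefore given in thousandths of a log2 unit on the DFW scale. They are not fold changes of raw intensity, and values of different probe sets are not compared as levels. Probe sets were called by Rank Products, the method of the study, at a false discovery rate (FDR) under 0.05, and each difference has a standard error (SE) from limma. Of all probe sets, 0.593% were called lower and 0.135% higher in the MCAO group. By limma 0% were called at an adjusted p under 0.05 (Benjamini-Hochberg), and 1150 (3.7%) had an unadjusted p under 0.05. The p-values measure the spread between 3 rats per group, and that number limits the precision of every value. The Rank Products FDR comes from permuting probe sets within each array and does not measure that spread. In a simulation with each probe set's own SD, 200 probe sets were raised by 6 SD. Rank Products recovered 9% of these and made 213 other calls. With the same SD at every probe set it recovered 100% and made 0 other calls. Rank Products ranks differences by their size, so the result depends on how SDs differ between probe sets. A call alone does not establish a difference.

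Of the 8 probe sets, that of Itgal was called lower in the MCAO group, none was called higher and 7 were not called. MCAO means lay below sham means at 4 probe sets and above them at 4. At the 7 probe sets not called, the difference was under 0.0002 log2 units in either direction. In all 8 the groups overlapped, where 8.41% of all probe sets had groups that did not. None of the 8 had an unadjusted limma p under 0.05, and none was called by limma. The median log2 difference of the 8 was -9.99e-07, beside 6.72e-08 over all probe sets. Subtracting each array's median adds the same 0.0298 thousandths to every difference, which is more than the size of those of Itgam, the second probe set of Itgb1, Itgb7, Icam1 and Pecam1, so no direction is read at these 5. It takes Itgam to 0.0303, the second Itgb1 to 0.0322, Itgb7 to 0.0273, Icam1 to 0.0335 and Pecam1 to 0.0376. At each of the 8 the difference between the groups was smaller than the SD within the MCAO group.

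**Figure D1:**
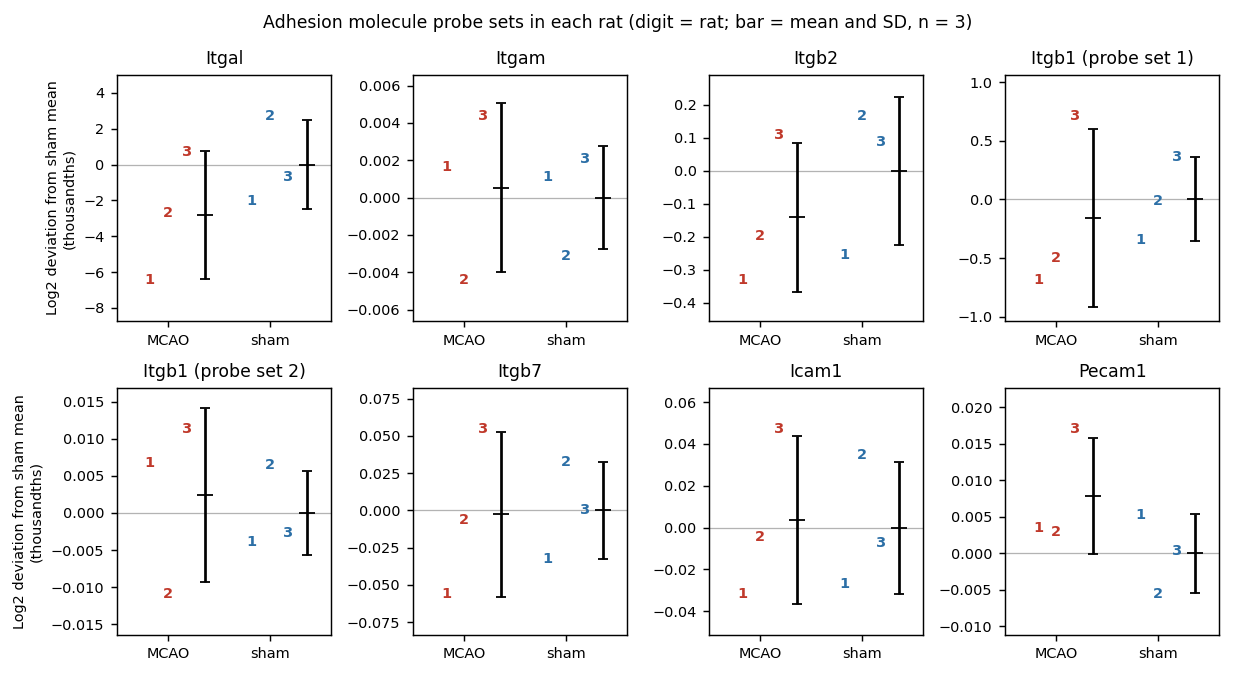
Log2 deviation from the mean of the sham rats (y axis, thousandths of a log2 unit, scale different in each panel) at the 8 probe sets, with each rat shown by its number and bars for the mean and SD (n = 3). Itgal ranged from -6.46 in MCAO rat 1 to 2.73 in sham rat 2, and in every panel the groups overlapped.

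Itgal, the alpha chain of LFA-1, had log2 levels of 6.385, 6.389 and 6.392 in the MCAO rats (1, 2 and 3, the order kept below) and of 6.389, 6.394 and 6.391 in the sham rats. MCAO rat 1 was lowest and sham rat 2 highest, while MCAO rat 3 lay above sham rats 1 and 3. The difference was -2.83 thousandths (SE 2.36, 95% confidence interval -9.10 to 3.44), which is -0.196% as a ratio on this scale. Within groups the SD was 3.58 thousandths for MCAO and 2.47 for sham (n = 3 each). Rank Products gave an FDR of 0.0489, rank 176 by FDR among the 184 probe sets called lower. By limma the unadjusted p was 0.290, and the exact two-sided permutation p was 0.4, where 0.1 is the smallest possible. The call was lost without MCAO rat 1 or 2 or any one of sham rats 1 to 3 (FDR 0.122 to 0.635), and held without MCAO rat 3 (FDR 0.00672). The difference was -1.01 thousandths without MCAO rat 1, -4.59 without MCAO rat 3 and -1.46 without sham rat 2. Over all probe sets, calls fell from 226 to 90, 69 and 74 without sham rats 1, 2 and 3. They were 268, 187 and 350 without MCAO rats 1, 2 and 3. A call lost without a sham rat is thus common over the array, also for the genes given below.

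Calls were concentrated among probe sets of wide range. Itgal ranged over 9.19 thousandths, more than 99.4% of all probe sets, and the 1000 probe sets of widest range held 216 of all 226 calls. The other member probe sets had ranges from 0.00882 thousandths for Itgam to 1.40 for the first probe set of Itgb1. Whether a narrow range reflects the blood or the normalization was not tested.

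**Figure D2:**
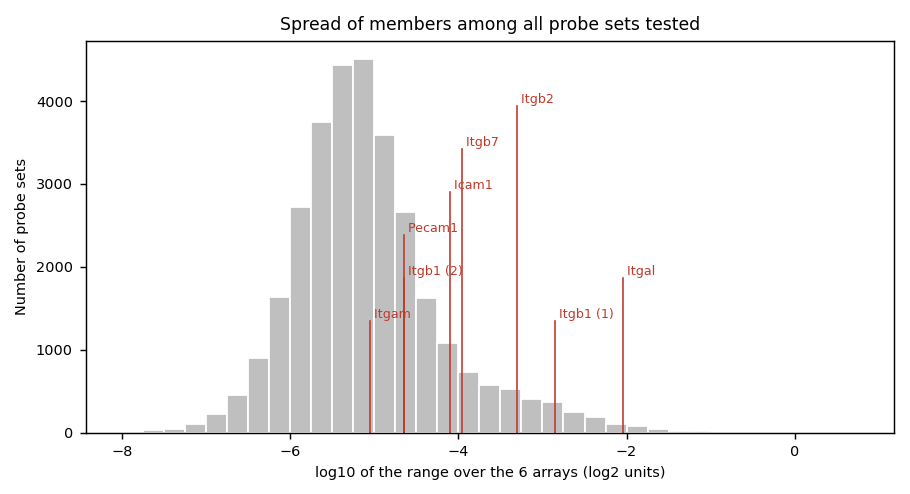
Number of probe sets (y axis) by the range over the 6 arrays (x axis, log10 of log2 units), with the 8 member probe sets as red lines whose heights carry no value. Itgal lay at the wide end, above 99.4% of all probe sets, and Itgam near the middle, above 57.6%.

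Itgb2 is the beta chain shared by LFA-1 and Mac-1. Relative to the sham mean it lay at -0.332, -0.199 and 0.109 thousandths in the MCAO rats and at -0.256, 0.167 and 0.0889 in the sham rats, around a level of 6.85. MCAO rats 1 and 2 and sham rat 1 were low, and MCAO rat 3 and sham rats 2 and 3 were high. The difference was -0.140 thousandths (SE 0.173), with an FDR of 0.698 and an exact permutation p of 0.5, and it turned to 1.02 after quantile normalization. As at Itgal, MCAO rat 1 was lowest and sham rat 2 highest.

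Itgam is the alpha chain of Mac-1 and a standard marker of myeloid cells. Its probe set had a level of 5.51 in every rat, below the median of every array. Whether it detects the transcript in blood was not tested. Relative to the sham mean it lay at 0.00164, -0.00443 and 0.00439 thousandths in the MCAO rats and at 0.00109, -0.00315 and 0.00206 in the sham rats. MCAO rats 1 and 3 thus lay among sham rats 1 and 3 or above them, and rat 2 was the lowest of each group. The difference was 0.000532 thousandths (SE 0.00289; exact permutation p = 0.9). The 95% interval was -0.00714 to 0.00820 thousandths.

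Itgb1, the beta chain of many cell types and of alpha 4 beta 1, was measured at 2 probe sets that differed in spread. At the first, at a level of 7.82, the MCAO rats lay at -0.690, -0.498 and 0.713 thousandths and the sham rats at -0.348, -0.0166 and 0.365. MCAO rats 1 and 2 were below every sham rat and MCAO rat 3 was above every sham rat, so the sham rats lay between them. The difference was -0.158 thousandths (SE 0.457; FDR 0.480; exact permutation p = 0.8). After quantile normalization it was -5.24 thousandths and was called lower (FDR 0.0374). The second probe set, at a level of 6.597, ranged over 0.0222 thousandths and had a difference of 0.00241 (SE 0.00710; exact permutation p = 0.8). The SD within the MCAO group was 0.761 thousandths at the first probe set, against 0.357 among sham rats.

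Itgb7, which pairs with alpha 4 on lymphocytes that home to the gut, had a level of 6.12 and lay at -0.0558, -0.00640 and 0.0546 thousandths in the MCAO rats and at -0.0323, 0.0322 and 1.87e-05 in the sham rats. The MCAO rats held both the lowest and the highest value, with a difference of -0.00253 thousandths (SE 0.0348; exact permutation p = 0.9). It was 0.0229 after quantile normalization.

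Icam1, the endothelial and leukocyte ligand of both beta 2 integrins and a gene induced by inflammation, had a level of 5.75 and lay at -0.0315, -0.00457 and 0.0472 thousandths in the MCAO rats and at -0.0271, 0.0346 and -0.00743 in the sham rats. The difference was 0.00368 thousandths (SE 0.0277; exact permutation p = 0.9), and 0.0346 after quantile normalization. Pecam1, found on endothelium, platelets and leukocytes, had a level of 6.79 and lay at 0.00350, 0.00290 and 0.0170 thousandths in the MCAO rats and at 0.00523, -0.00554 and 0.000310 in the sham rats. MCAO rat 3 was the high one, and MCAO rats 1 and 2 lay below sham rat 1. The difference was 0.00780 thousandths (SE 0.00524; exact permutation p = 0.3).

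The rule also asks for beta 2 against beta 1 and beta 7 within each rat. The log2 value of Itgb2 minus that of the first Itgb1 probe set, relative to its sham mean, was 0.358, 0.299 and -0.604 thousandths in the MCAO rats and 0.0924, 0.184 and -0.276 in the sham rats. Rat 3 was low and rats 1 and 2 high in both groups. The groups differed by 0.0178 thousandths, with SDs of 0.540 for MCAO and 0.243 for sham (exact permutation p = 1, n = 3 each). It was 6.26 after quantile normalization. The direction turned to -0.0625 with the mean of both Itgb1 probe sets, and to -0.152 without MCAO rat 1, -0.123 without MCAO rat 2 and -0.120 without sham rat 3. For Itgb2 minus Itgb7 the values were -0.276, -0.192 and 0.0546 thousandths in the MCAO rats and -0.224, 0.135 and 0.0888 in the sham rats. MCAO rats 1 and 2 and sham rat 1 were low. The groups differed by -0.138 thousandths (exact permutation p = 0.3), and by 1.001 after quantile normalization. Since Itgb7 ranged over 0.110 thousandths and Itgb2 over 0.499, this difference largely carries the values of Itgb2.

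**Figure D3:**
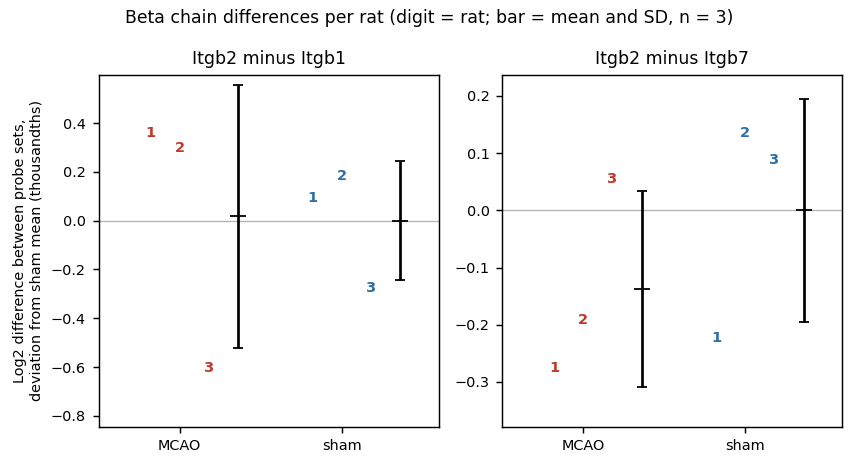
Itgb2 minus Itgb1 (left) and Itgb2 minus Itgb7 (right) in each rat, as the deviation from the sham mean (y axis, thousandths of a log2 unit), with each rat shown by its number and bars for the mean and SD (n = 3). MCAO rats spread from -0.604 to 0.358 on the left and the groups overlap in both panels.

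In the values before any centring, the rats fell in a similar order across the members more often than the groups separated. MCAO rat 1 was lowest at 5 of the 8 probe sets (Itgal, Itgb2, the first of Itgb1, Itgb7 and Icam1), and MCAO rat 3 was highest at 6 (all but Itgal and Itgb2). Of all probe sets, 19.5% were lowest in MCAO rat 1 and 15.5% highest in MCAO rat 3. The array of MCAO rat 1 also had the lowest median, 5.56433 against 5.56438 to 5.5644 in the others. At Itgam, the second of Itgb1, Itgb7, Icam1 and Pecam1, rats differed by amounts of similar size or smaller. Whether the order of the rats there holds after subtracting the medians was not tested. The SD was larger in the MCAO than in the sham group at all 8 probe sets, as at 56.8% of all probe sets. The members share arrays and cells and are not independent of each other.

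The sequences before the genes' starts were available from RefSeq (GRCr8) for 4 of the 7 measured members, Itgam, Itgb1, Itgb7 and Icam1. That of Itgb7 is not shown, since its window lies inside the annotated gene. The others are shown. Before centring, MCAO rat 1 was lowest and MCAO rat 3 highest at Icam1 and at the first probe set of Itgb1. Itgam is a member where MCAO rat 1 was not lowest. Each line gives the part of a 250-base RefSeq window that lies before the annotated start of the gene, on the plus strand and 5′ to 3′. Capitals mark every match on either strand to GAGGAA, a core bound by PU.1, a factor of myeloid and B cells, to GGGCGG, the GC box bound by Sp1, or to GGAAATTCC, an NF-kappa B site, and no matches overlap.
Itgb1, chr19:73602027-73602276: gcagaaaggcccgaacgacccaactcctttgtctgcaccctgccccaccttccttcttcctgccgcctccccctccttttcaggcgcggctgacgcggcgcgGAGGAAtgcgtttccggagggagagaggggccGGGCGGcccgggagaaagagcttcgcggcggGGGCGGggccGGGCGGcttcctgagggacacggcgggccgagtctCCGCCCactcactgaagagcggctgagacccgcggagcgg
Itgam, chr1:192089342-192089495: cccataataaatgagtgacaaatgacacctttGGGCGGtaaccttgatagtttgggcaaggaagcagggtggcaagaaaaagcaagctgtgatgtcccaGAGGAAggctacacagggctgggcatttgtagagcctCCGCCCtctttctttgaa
Icam1, chr8:27829595-27829687: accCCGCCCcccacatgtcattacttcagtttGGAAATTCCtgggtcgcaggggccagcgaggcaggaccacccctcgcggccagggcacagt

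The Itgb1 stretch was 71.2% G or C with 28 CpG pairs, against medians of 51.2% and 5 over all promoters of that length. It held 4 GC boxes and 1 GAGGAA, which 30.5% and 23.3% of 33469 promoters hold at least once. The Itgam stretch was 49.4% G or C and held 2 GC boxes and 1 GAGGAA (17.1% and 15.0% of promoters at its length). Icam1 held GGAAATTCC once, which 0.0896% of promoters hold in a stretch of 93 bases. These are matches of letters, the shares are no test of any gene, and no binding was measured.

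The blood cell markers moved with the rats as well, and in whole blood fewer cells of a type and less RNA per cell cannot be told apart. Marker signal was summed on the linear scale (2 to the power of the log2 value) over each list. The sum of 10 neutrophil markers, of 15 in the list, ran from 1222 in MCAO rat 1 to 1276 in MCAO rat 3, around 1240 to 1250.0 in the sham rats. The sum of 11 of 12 monocyte markers ran from 1946 to 2016 in the same MCAO rats, around 1968 to 1999 in the sham rats. For 14 of 15 T cell markers it was 1143 to 1145 in the MCAO and 1144 to 1146 in the sham group, and for 11 of 12 NK and cytotoxic cell markers 677.8 to 678.8 and 678.4 to 679.0. For 9 of 12 B cell markers it was 831.21 to 832.15 in the MCAO and 832.20 to 833.06 in the sham group. Each sham rat lay above each MCAO rat, as at 3.6% of all probe sets, though a sum is not a probe set. MCAO rat 1 had the lowest sum of all 6 rats in these 5 lists, as it had the lowest Itgal. The sums rest on few genes. Lyz2 alone ranged over 69.4 of the 69.6 units of the monocyte sum. S100a9 and S100a8 ranged over 37.0 and 12.7 of 53.6 units of the neutrophil sum. Fcmr and Ms4a1 ranged over 1.17 and 0.606 of 1.85 units of the B cell sum. Tcf7 and Cd3g ranged over 1.30 and 0.623 of 2.83 units of the T cell sum. Prf1 ranged over 0.846 of 1.18 units of the NK and cytotoxic sum. By gene, MCAO rat 1 was lowest in 4 of 10 neutrophil, 4 of 11 monocyte, 10 of 14 T cell, 6 of 9 B cell and 7 of 11 NK and cytotoxic markers. The 2 genes of widest range were then left out of each sum, a choice made after seeing the data. MCAO rat 1 was still lowest in all 5, over ranges of 3.90 units for neutrophil, 0.0389 for monocyte and 0.0693 for B cell markers. What was left of the neutrophil sum moved mostly with 1 gene, Csf3r. Its log2 values were 6.360, 6.377 and 6.426 in the MCAO rats and 6.376, 6.373 and 6.374 in the sham rats. The order of the rats by the NK and cytotoxic sum was that of Itgal. The part of cell composition in the Itgal value was not tested.

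Single markers differed as follows, where 0.593% of all probe sets were called lower and 0.135% higher. Among 10 neutrophil markers, Csf3r, the receptor of granulocyte growth factor, was called higher (13.1 thousandths, SE 18.7). Il1r2, a decoy receptor of interleukin 1, was also called higher (0.485, SE 0.216). S100a9 was called lower although its mean was higher (2.71, SE 27.8). Among monocyte markers, Csf1r had -1.32 thousandths (SE 1.59) and Lyz2 had 0.289 (SE 21.6), and 0 of 11 were called. Each of the 3 neutrophil calls was lost without some rats. Csf3r turned to -6.07 without MCAO rat 3 and was 27.0 without MCAO rat 1, and S100a9 ran from -24.1 without MCAO rat 3 to 25.4 without MCAO rat 1. Of 14 T cell markers, Tcf7 (-6.03, SE 3.996) and Cd3g (-3.12, SE 2.07) were called lower. Of 9 B cell markers, Ms4a1 (-5.09, SE 2.29), Fcmr (-4.85, SE 2.18) and Cr2 (-0.833, SE 0.330) were called lower. Without MCAO rat 1, Tcf7 was -2.61 and Cd3g -1.45, and neither was called (FDR 0.0559 and 0.122), while Ms4a1 (-3.09) and Fcmr (-3.16) were. Without sham rat 2 or 3, none of the 5 T and B cell genes was called, where 69 and 74 of all probe sets were, against 226. Of 11 NK and cytotoxic markers, Prf1 was called lower (-4.89, SE 4.10). Its call was kept without MCAO rat 3 and lost without each other rat (-1.83 without MCAO rat 1). Klrb1a had -1.29 (SE 1.15). The 7 of 10 platelet markers measured summed to 5158.0 to 5160.2 in the MCAO and 5157.6 to 5158.9 in the sham group, with no call, Treml1 at 0.450 (SE 0.477) and Ppbp at 0.205 (SE 0.176). The 8 of 10 erythroid markers summed to 32011.0 to 32011.3 and 32010.9 to 32015.4, with Tfrc, the transferrin receptor, called lower (-6.61, SE 4.85; no call without MCAO rat 3 or sham rat 2 or 3, and -2.81 without sham rat 3) and Rhag at -1.14 (SE 0.696). Endothelial markers (9 of 10) summed to 466.6 and heart muscle markers (9 of 10) to 442.2 in every rat. None of these was called, with Cldn5 at 0.00827 (SE 0.00875), Egfl7 at 0.00817 (SE 0.00664), Myl3 at 0.00274 (SE 0.00104) and Myl2 at 0.00156 (SE 0.00112).

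**Figure D4:**
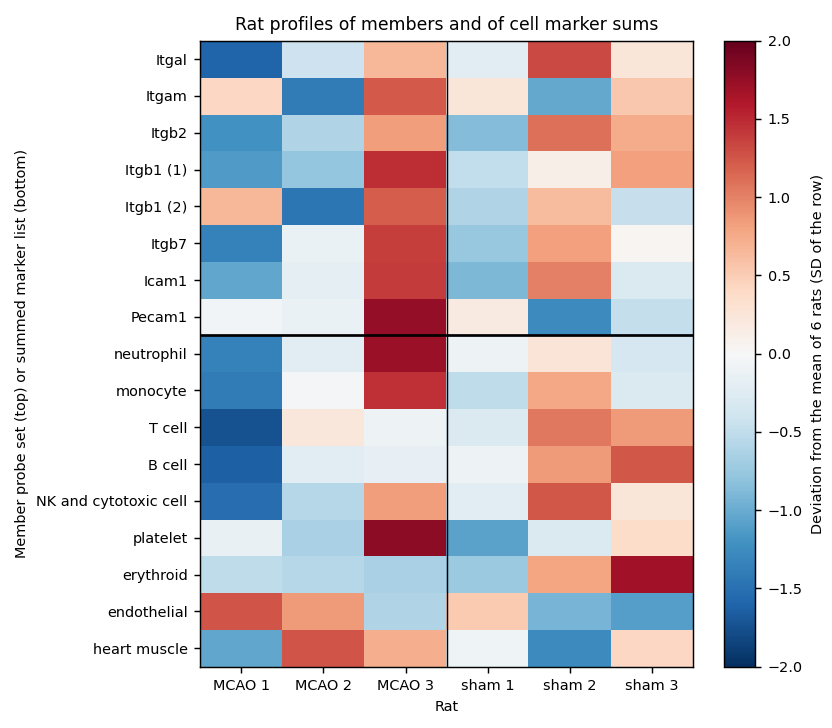
Deviation of each rat (columns) from the mean of the 6 rats, in SDs of the row, for the 8 member probe sets (above the line) and the summed markers of 9 cell types (below it). MCAO rat 1 was lowest for Itgal and for the neutrophil, monocyte, T, B and NK cell sums, and MCAO rat 3 highest at 6 of the 8 member probe sets.

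Other genes of leukocyte adhesion were taken from 5 lists. Of 104 genes, 92 were measured, 2 were called lower, 0 higher and 90 not, against 0.593% lower and 0.135% higher of all probe sets. MCAO rat 1 was lowest in 28 of the 92 and MCAO rat 3 highest in 40. Of the 92, 5 had every MCAO rat below every sham rat and 2 the reverse, against 3.6% and 4.82% of all probe sets.

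Of 17 other integrin subunits none was called, with a median log2 difference of 5.60e-08. Itgb3 and Itga2b, the chains of the platelet fibrinogen receptor, had 0.114 thousandths (SE 0.274) and 0.0467 (SE 0.124), and Itgav, a partner of Itgb3, had 0.0492 (SE 0.0700). All 3 values were within the error. Itgav ran from 0.00326 to 0.106 with each rat left out.

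Of 16 genes of the selectins and of selectin ligand synthesis, Spn was called lower and 15 were not called (median -3.75e-08). Spn, the leukocyte sialomucin CD43, had levels of 6.683, 6.686 and 6.688 in the MCAO rats and of 6.686, 6.691 and 6.689 in the sham rats. MCAO rat 1 was low and sham rat 2 high, as at Itgal. The difference was -3.19 thousandths (SE 2.03; FDR 0.0234; exact permutation p = 0.2), and the call was lost without sham rat 1, 2 or 3 (FDR 0.0836 to 0.391). It was -1.71 thousandths without MCAO rat 1 and -1.98 without sham rat 2. Cd44, the hyaluronan receptor, had 0.244 (SE 0.544). Tpst1, a tyrosine sulfotransferase that modifies selectin ligands, had -0.00682 (SE 0.00243), with every MCAO rat below every sham rat (exact permutation p = 0.1) and no call. Selp, P-selectin of platelets and endothelium, had 0.00461 (SE 0.00118), with every MCAO rat above every sham rat (limma unadjusted p = 0.0140, exact permutation p = 0.1) and no call, and Sele, E-selectin, had -0.000108 (SE 0.000431). These 3 differences are smaller than the shift that subtracting the medians adds. Selp and Sele were chosen after their values were seen.

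Of 17 other molecules of the immunoglobulin family and of cell junctions none was called (median 5.82e-07). Cd48, a leukocyte ligand of Cd2 and Cd244, had -2.07 thousandths (SE 2.696), and was called lower without MCAO rat 3. Icam2, a further ligand of LFA-1, had -0.0804 (SE 0.104; -0.150 to -0.00307 with each rat left out), and Jam3, a junctional molecule that binds Mac-1, had 0.0141 (SE 0.0167; 0.00438 to 0.0274).

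Of 19 genes that activate integrins from inside the cell none was called (median -2.07e-06). Apbb1ip (RIAM), which links Rap1 to talin, had -2.92 thousandths (SE 4.73; FDR 0.185), Skap2, an adaptor, had -0.732 (SE 1.01; -1.47 to -0.0189 with each rat left out, nearest 0 without sham rat 3), and Cytip, which binds cytohesin, had -0.493 (SE 0.272; -0.644 to -0.240). Apbb1ip was called lower without MCAO rat 3 (-6.99) and had 1.08 without MCAO rat 1. In 1 of the 19, Rap1a, every MCAO rat was below every sham rat, as at 3.6% of all probe sets. It had -0.0754 thousandths (SE 0.0209; limma unadjusted p = 0.0183, exact permutation p = 0.1) and no call (FDR 0.284). Rap1a was chosen after its values were seen.

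Of 23 genes of signalling and adhesion sites downstream of integrins, Coro1a was called lower and 22 were not called (median -1.58e-06). Coro1a, coronin 1A, an actin regulator of leukocytes, had levels of 6.956, 6.966 and 6.972 in the MCAO rats and of 6.967, 6.974 and 6.970 in the sham rats. MCAO rat 1 was again lowest and sham rat 2 highest. The difference was -5.28 thousandths (SE 4.83; FDR 0.0255; exact permutation p = 0.4). The call was lost without MCAO rat 1 or 2 or sham rat 1, 2 or 3 (FDR 0.0653 to 0.463), and the difference was -0.984 without MCAO rat 1, -9.04 without MCAO rat 3 and -3.39 without sham rat 2. Wipf1, which binds the Wiskott-Aldrich protein, had -1.54 (SE 3.36), and Lims1, an adaptor of the integrin-linked kinase, had 0.386 (SE 0.381) and was called higher without sham rat 3 (FDR 0.0233), with 0.0696 to 0.626 over the rats left out.

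**Figure D5:**
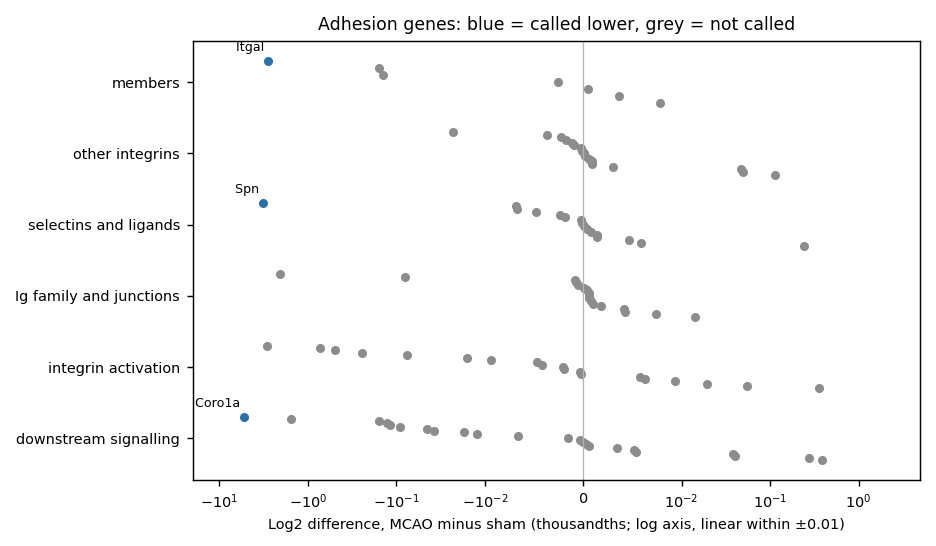
Log2 difference between the MCAO and sham groups (x axis, thousandths of a log2 unit, log axis that is linear within 0.01 of 0) for each measured member and each gene of the 5 other adhesion lists (y axis). Itgal, Spn and Coro1a, in blue, were called lower, and 6 of the 7 members and 90 of the 92 other genes, in grey, were not called.

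The genes most like 3 members in their pattern over the 6 rats were found by Pearson's r among the probe sets with 1 symbol. For Itgal they were Nek9 (0.999), Ankfy1 (0.998) and Sf3b4 (0.998), for Itgb2 Tdp2 (0.994), Laptm4a (0.993) and Mtch1 (0.992), and for the first probe set of Itgb1 Gnb2 (0.997), RT1-DMa (0.996) and Ntan1 (0.995). Spearman's rho was 1 in each. They are the highest among 20836 probe sets (20835 for Itgb1) on 6 shared arrays and carry no test. An r over 0.95 was reached by 311 probe sets with Itgal, 167 with Itgb2 and 139 with Itgb1.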

How the data were processed

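Whole-blood RNA of 3 MCAO and 3 sham rats was hybridized to rat 3′ expression arrays. The authors normalized the scans with DFW in R and deposited 1 value per probe set and array, taken here as log2 from a range of 4.93 to 14.4, since no log base is stated. The 57 control probe sets were left out of 31099. Rank Products was written in Python 3.11.15 (numpy 2.4.6, pandas 2.3.3) over all 9 MCAO minus sham differences with 100 permutations. limma 3.58.1 in R 4.3.3 gave differences, SEs, intervals and adjusted p values over all probe sets, and exact permutation tests were two-sided. In data simulated with each probe set's own SD, 200 of 31042 probe sets were raised by 6 SD. Rank Products recovered 9% with 213 other calls and limma 0%. At 12 SD limma recovered 90%. With the same SD at every probe set and 6 SD, Rank Products recovered 100% with 0 other calls.

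The annotation gives 20837 probe sets 1 symbol, 425 several and 9780 none. Probe sets with several or none stayed in the fits and were not named, and a list gene is represented by its probe set of the highest mean. Members and lists were chosen with earlier results of these data known. Named were the members, called genes and the 3 largest differences of each adhesion list, 2 of each marker list, and 3 genes most like each of 3 members. Il1r2, Cr2, Selp, Sele and Rap1a were added after their values were seen. Alternatives tried were quantile normalization, subtraction of each array's median, keeping control probe sets, testing the brighter probe sets alone, rank sums, a second seed, a stricter FDR of 0.01, limma for the calls (with and without a trend on intensity), rat number as a block, any or all probe sets of a gene, scaling to unit SD, and leaving out each rat.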

Additional observations from a re-analysis of the deposited data

How the results depend on the processing

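The mean of Itgal was lower in the MCAO group under the 8 alternatives that could move it. These reuse the same rats, and the 0.0298 thousandths added by centring were too few to turn its sign. The call of Itgal was kept in 4 of 16 (another seed, control probe sets kept, centring on the median and without MCAO rat 3). The number of called member probe sets was 1, and 0 at an FDR of 0.01, among the brighter probe sets, with rank sums, with same-numbered rats as blocks and by limma with or without an intensity trend. It was 0 to 1 when each rat was left out in turn. After quantile normalization 1 was called, which was Itgb1 and not Itgal (FDR 0.136). For the selectin list the count of 1 became 0, and for the downstream list 0, at an FDR of 0.01, among the brighter probe sets, with rank sums and by limma, and the downstream list also had 0 after quantile normalization. With each rat left out the counts ran from 0 to 1 for the selectin and immunoglobulin family lists, 0 to 1 for integrin activation and 0 to 2 for the downstream list.

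The labels do not say whether rats that share a number were paired. Correlations of their deviations were 0.211, 0.0400 and 0.0661 for numbers 1 to 3, and 4 of 6 rats were closest to their own number. These values do not settle it, and the main tests were unpaired. With the replicate block 356 probe sets were called against 226, 0 of the 8 member probe sets, 2 genes of integrin activation (1 lower, Apbb1ip, and 1 higher) and 2 of the downstream list (Coro1a lower and Lims1 higher, FDR 0.0184). For Itgb2 minus Itgb1 the block left 0.0178 thousandths (exact sign-flip p = 1) and for Itgb2 minus Itgb7 -0.138 (p = 0.25, exact and the smallest possible). Itgb2 minus Itgb1 turned to -0.0625 with the mean of all probe sets and to -0.356 SD units with unit SD, and Itgb2 minus Itgb7 to 1.001 after quantile normalization. Quantile normalization also turned Itgb2 (1.02 thousandths), Itgb7 (0.0229), Itga2b (-5.15) and Lims1 (-2.25), the cause of which was not tested. Centring turned Itgb7 (0.0273) and Tpst1 (0.0230) because it adds 0.0298 to every difference.

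Leaving out each rat moved the differences, in thousandths, between -0.00140 and 0.00301 for Itgam, -0.594 and 0.108 for the first and -0.00205 and 0.00907 for the second probe set of Itgb1, -0.0311 and 0.0241 for Itgb7, -0.0181 and 0.0213 for Icam1, -0.143 and 0.276 for Itgb3, -0.0821 and 0.120 for Itga2b, -0.264 and 0.580 for Cd44, -4.12 and 0.462 for Cd48, -6.99 and 1.08 for Apbb1ip, -4.05 and 1.48 for Wipf1 and, added after seeing the data, -6.07 and 27.0 for Csf3r and -24.1 and 25.4 for S100a9. Those of Itgal (-4.59 to -1.01), Itgb2 (-0.268 to -0.0448) and Pecam1 (0.00320 to 0.0104) kept their sign. Still, quantile normalization turned Itgb2, and no direction is read at Pecam1. Itgb2 minus Itgb1 ran from -0.152 to 0.329 and Itgb2 minus Itgb7 from -0.250 to -0.0689.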
